A study of Mus musculus with 282 samples.

Results

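The genes that make cholesterol and fatty acids were followed in the hypothalamus of 282 male mice from 99 strains of the Hybrid Mouse Diversity Panel. All were fed a high fat diet, which the study describes as high in sugar too. The set holds 30 named genes, chosen by gene name. All 30 were found among the 14079 genes of the expression table, 29 under the name itself and Msmo1 under its older symbol Sc4mol. They fall into 7 genes of the mevalonate arm, 10 of the squalene and sterol arm, 4 regulators and sterol carriers, 6 genes of fatty acid synthesis and 3 of the polyunsaturated fatty acid arm.

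Each mouse gave 1 library of polyadenylated RNA from the whole hypothalamus, and the labels give no age, no duration of the diet and no group on another diet. The strains were 25 classical inbred strains and 4 families of recombinant inbred strains that descend from pairs of them. There were 43 BXD strains (parents C57BL/6J and DBA/2J), 18 AXB/BXA strains (A/J and C57BL/6J), 7 CXB strains (BALB/cJ and C57BL/6J) and 6 BXH strains (C57BL/6J and C3H/HeJ). 85 strains had 3 mice, 12 had 2 mice and AXB-12/PgnJ and I/LnJ had 1 mouse each. The mice of 1 strain were separate animals according to the series' design, and strains of 1 family share parents, so strain means are not fully independent of each other. In 1 further mouse of the 282 the labels gave conflicting strain names, and it entered none of the main comparisons.

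Cholesterol is built from acetyl-CoA through mevalonate and squalene, and the last steps reshape lanosterol into cholesterol. The brain makes its own cholesterol because lipoproteins do not cross the blood-brain barrier, and astrocytes and the myelin-forming oligodendrocytes are major producers. Srebf2 and Srebf1 encode transcription factors that drive, respectively, mainly the sterol genes and mainly the fatty acid genes, and the protein encoded by Insig1 holds these factors back in the endoplasmic reticulum when sterols are plentiful. Their classical binding site in promoters is the sterol regulatory element, and binding of the partner factor NF-Y to CCAAT boxes nearby is common in such promoters.

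Promoter sequences were available for 23 of the 30 genes in the RefSeq annotation of GRCm38.p6, as 300 bases of which 250 lie before the start site and 50 after it. None was available for Fads1, Fdft1, Fdps, Scd1, Scd2, Sqle and Stard4, so these genes were not searched. The search on both strands covered a sterol element (TCACNCCAC), the E-box CACGTG, the CCAAT box (CCAAT) and the GC box (GGGCGG), none of which contains another. The sterol element was found in 1 of the 23 genes, Hmgcs1, and in 1.24% of all 32851 promoters. The CCAAT box was found in 19 of the 23 genes (82.6%) and in 37.4% of all promoters, and the GC box in 18 genes (78.3%) and 35.7% of all promoters. The E-box was found in 5 genes (21.7%), namely Hsd17b7, Insig1, Dhcr7, Sc5d and Elovl5, and in 7.15% of all promoters. Some genes have several listed starts. Counted by window, as for all promoters, 20 of the 28 windows of these genes (71.4%) held a CCAAT box, 20 (71.4%) a GC box and 5 (17.9%) an E-box. A match describes the letters in this window and is not a measured binding site.

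Msmo1 and Mvd are shown because they are 2 of the 4 genes that followed the other sterol enzymes most closely across strains. The other 2 are Fdps and Fdft1, for which no promoter sequence was available. When BXD-12/TyJ replicate 2 and CXB-3/ByJ replicate 3, whose libraries stood apart, were left out, the median r of Fdps with the other sterol enzymes moved from 0.327 to 0.196 and Sqle (0.290) took its place among the 4. Hmgcs1 was added after the search because it alone of the genes searched held the sterol element. Capitals mark every motif found on either strand, and each sequence reads 5′ to 3′ on the strand of its gene. The windows lie at chr13:119690101-119690400 (plus strand) for Hmgcs1, chr8:64733529-64733828 (minus strand) for Msmo1 and chr8:122443373-122443672 (minus strand) for Mvd.
Hmgcs1: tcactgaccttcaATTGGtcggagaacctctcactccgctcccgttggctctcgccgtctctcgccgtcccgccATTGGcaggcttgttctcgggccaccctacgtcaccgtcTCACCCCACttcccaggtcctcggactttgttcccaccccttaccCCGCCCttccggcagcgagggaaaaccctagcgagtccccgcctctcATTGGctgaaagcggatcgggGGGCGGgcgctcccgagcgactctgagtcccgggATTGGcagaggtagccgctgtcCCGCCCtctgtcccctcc
Msmo1: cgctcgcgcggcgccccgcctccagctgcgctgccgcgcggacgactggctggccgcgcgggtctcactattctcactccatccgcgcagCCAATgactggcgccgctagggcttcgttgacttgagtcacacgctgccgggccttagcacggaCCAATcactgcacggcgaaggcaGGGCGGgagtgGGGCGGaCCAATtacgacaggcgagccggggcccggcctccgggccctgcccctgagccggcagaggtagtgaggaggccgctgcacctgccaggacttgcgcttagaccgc
Mvd: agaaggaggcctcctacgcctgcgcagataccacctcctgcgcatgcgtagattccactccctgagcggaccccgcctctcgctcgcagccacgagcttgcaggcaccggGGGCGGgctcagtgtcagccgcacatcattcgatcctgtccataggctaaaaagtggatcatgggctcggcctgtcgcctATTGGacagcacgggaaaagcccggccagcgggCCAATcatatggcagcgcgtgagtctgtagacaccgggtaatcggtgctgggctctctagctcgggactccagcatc

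The sterol element of Hmgcs1 lies at position -137 relative to the start site. Of CCAAT boxes, Hmgcs1 held 4, Msmo1 held 3 and Mvd held 2. The RefSeq start site of Mvd lay 3320 bases from the start of its locus in the authors' assembly, against 34 bases for Hmgcs1 and 214 for Msmo1.

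Expression is given in FPKM, the fragment count scaled by transcript length and by library size, so levels can be compared between genes. Scd2, a brain-rich stearoyl-CoA desaturase that puts the first double bond into saturated fatty acids, had the highest level of the 30 genes, 318 ± 56.3 FPKM (SD over all mice with a strain). Fads2 (88.0 ± 10.1), Fasn (80.9 ± 10.9), Fads1 (79.8 ± 15.1) and Hmgcs1 (75.8 ± 7.80) came next, and their ranges over mice overlap. Idi1, the isomerase of the isoprenoid units, had the lowest level, 2.88 ± 1.15 FPKM, and was above 1 FPKM in 277 of these mice. The assembly joined 3 of the 30 loci to neighbours, Pmvk with Pbxip1, Tm7sf2 with Vps51 and Zfpl1, and Scd2 with Scd3, so the levels of these loci also count reads of those genes. The transcripts of Tm7sf2 itself summed to a mean of 12.5 FPKM, where its locus had 57.7. For Pmvk these values were 28.5 and 47.7, and for Scd2 they were 241 and 318. The libraries did not mark strand, so antisense reads are counted in as well.

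The libraries of 2 mice stood apart from all others. The FPKM values of BXD-12/TyJ replicate 2 summed to 792801 and those of CXB-3/ByJ replicate 3 to 463433, against a median of 337467 over all mice. BXD-12/TyJ replicate 2 lay above every other mouse for 9 of the 30 genes, below every other mouse for 11, and inside their range for 10. Set against the mice outside this pair only, the counts for CXB-3/ByJ replicate 3 were 9, 8 and 13. Fdps was at 160 and 67.6 FPKM in these 2 libraries against 23.8 to 45.6 in the other mice. Scd2 was at 21.3 and 49.9 FPKM against 109 to 447. Results that rest on these libraries are given with and without them, a choice made after seeing the data.

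The hypothalamus markers Agrp, Pomc, Hcrt, Pmch, Nkx2-1, Avp and Oxt were all above 0 in every mouse. The summed level of the 8 oligodendrocyte and myelin markers ranged from 1541 to 3908 FPKM and that of the 5 astrocyte markers from 256 to 514. The 6 anterior pituitary markers found ranged from 0.589 to 16462 FPKM in sum (median 25.8), and the 5 choroid plexus markers from 7.25 to 2101 (median 23.9). In whole tissue, fewer cells of a type and less RNA per cell cannot be told apart.

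Strain identity was read first as the share of variance that lies between strains. The strain share is the intraclass correlation of log2(FPKM + 1), 1 where mice that share a strain have equal levels and 0 where sharing a strain brings levels no closer, and it was tested with limma's moderated F test, adjusted by Benjamini-Hochberg over all genes. The test called 26 of the 30 genes at an adjusted p below 0.05, which is 86.7%, and it called 75.4% of all genes tested. The median share was 0.315 for the 30 genes and 0.222 for all genes. Without the 2 libraries set apart, 26 of the 30 genes and 83.9% of all genes were called, and the medians were 0.370 and 0.270. Of 31 other genes of lipid metabolism listed, 30 were found, and 26 of those 30 were called.

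**Figure D1:**
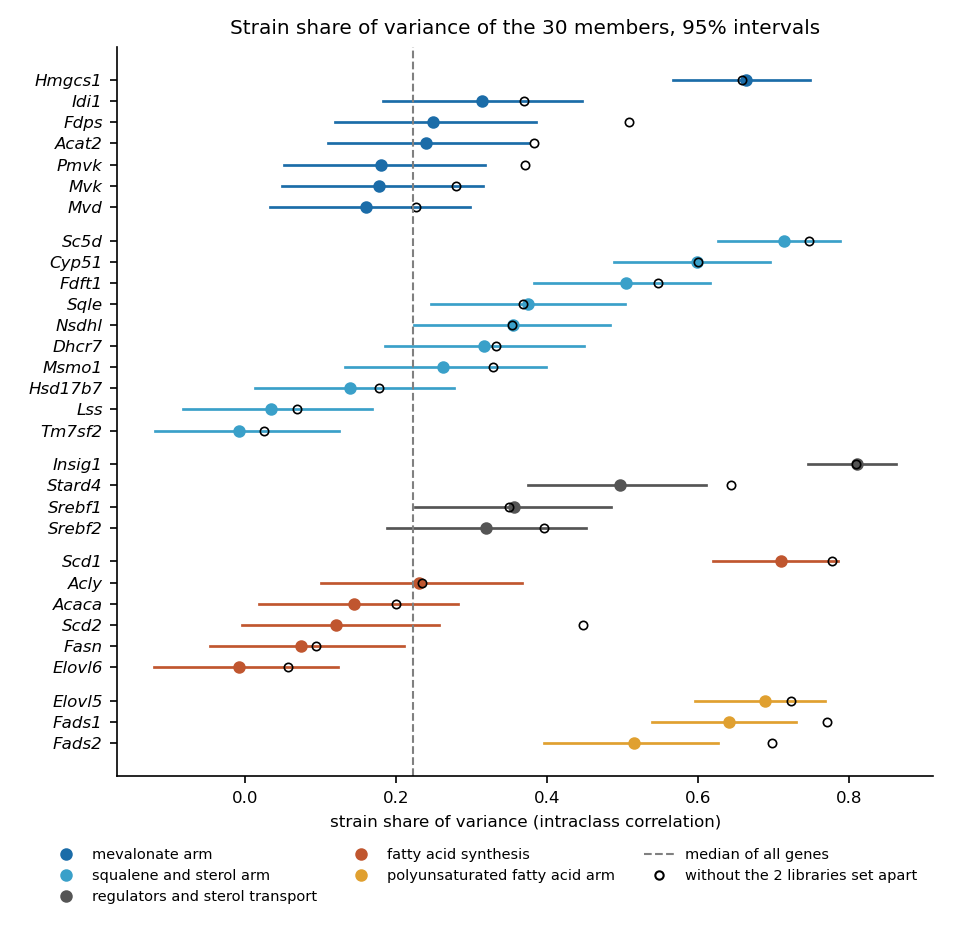
Strain share of variance of the 30 genes on the horizontal axis (intraclass correlation, no unit), grouped by role, with filled points and 95% intervals from all mice with a strain and open points without the 2 libraries set apart. The dashed line is the median of all genes, 0.222. Insig1 lies highest at 0.810, and the intervals of Tm7sf2, Elovl6, Lss, Fasn and Scd2 reach below 0.

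In the mevalonate arm all 7 genes were called, with a median share of 0.240. Hmgcs1, the synthase of the pathway's HMG-CoA, on chr13:119690317-119708355 (plus strand), had the largest share of the arm, 0.664 (95% interval 0.566 to 0.749, adjusted p = 5.30e-26, limma). Its strain means ran from 59.98 ± 4.63 FPKM in SJL/J (n = 2) to 95.7 ± 3.08 in BXD85 (n = 3). The mice of BXD85 were at 97.7, 92.1 and 97.3 FPKM and those of SJL/J at 63.3 and 56.7, so the mice of these strains did not overlap. The other 6 genes, Acat2 (acetoacetyl-CoA thiolase), Mvk and Pmvk (the mevalonate kinases), Mvd (the decarboxylase), Idi1 and Fdps (farnesyl diphosphate synthase), had shares of 0.160 to 0.314. The share of Fdps moved from 0.249 to 0.508, that of Pmvk from 0.180 to 0.371, that of Acat2 from 0.240 to 0.382 and that of Mvk from 0.177 to 0.279 without the 2 libraries. Summed over its own transcripts only, Pmvk had a share of 0.296 (adjusted p = 4.81e-06, limma).

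In the squalene and sterol arm 8 of the 10 genes were called, with a median share of 0.335. Sc5d, the lathosterol desaturase, on chr9:42247572-42264348 (minus strand), had a share of 0.714 (0.626 to 0.788, adjusted p = 2.00e-32, limma). Cyp51, the lanosterol demethylase, had 0.598, and Fdft1, the squalene synthase, had 0.504. Sqle (squalene epoxidase), Nsdhl (a sterol dehydrogenase), Dhcr7 (the last reductase before cholesterol), Msmo1 (the sterol methyl oxidase) and Hsd17b7 (a sterol ketoreductase) had shares of 0.139 to 0.375. Lss, the lanosterol synthase, was not called (0.035, -0.082 to 0.169, adjusted p = 0.289, limma). Tm7sf2, a sterol reductase in a joined locus, was not called either (-0.007, -0.119 to 0.124, adjusted p = 0.555, limma), nor from its own transcripts (-0.014, adjusted p = 0.574, limma).

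All 4 regulators and carriers were called. Insig1, on chr5:28071310-28078678 (plus strand), had the largest strain share of the 30 genes, 0.810 (0.746 to 0.862, adjusted p = 1.96e-46, limma), higher than in 97.6% of all genes. Its strain means ran from 18.0 FPKM in I/LnJ, from 1 mouse, and 18.0 ± 0.987 in BXH-19/TyJ (n = 2) to 35.1 ± 2.61 in BXA-12/PgnJ (n = 2). Stard4, a carrier that moves cholesterol between membranes, had a share of 0.496, and 0.643 without the 2 libraries. Srebf1 had 0.356 and Srebf2 had 0.319.

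In fatty acid synthesis 4 of 6 genes were called, with a median share of 0.132. Scd1, a stearoyl-CoA desaturase, on chr19:44394451-44407879 (minus strand), had a share of 0.709 (0.620 to 0.784, adjusted p = 1.79e-31, limma). Acly (ATP citrate lyase, the source of cytosolic acetyl-CoA), Acaca (acetyl-CoA carboxylase) and Scd2 had shares of 0.120 to 0.230, and Scd2 had 0.447 without the 2 libraries but was not called after quantile normalization (0.093, adjusted p = 0.073, limma). Fasn, the fatty acid synthase itself, was not called (0.074, -0.047 to 0.210, adjusted p = 0.133, limma), but it was called after quantile normalization (0.209, adjusted p = 0.00102, limma). Elovl6, an elongase of saturated chains, was not called (-0.008, -0.120 to 0.123, adjusted p = 0.531, limma). A share near 0 with this interval does not show that strains have the same level.

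The 3 genes of the polyunsaturated arm were all called. Elovl5, the elongase of polyunsaturated chains, on chr9:77917274-77984625 (plus strand), had a share of 0.689 (0.596 to 0.768, adjusted p = 1.98e-28, limma). Fads1 and Fads2, the delta-5 and delta-6 desaturases, which lie beside each other on chromosome 19, had shares of 0.640 and 0.515. These were 0.771 and 0.698 without the 2 libraries.

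Transcripts were tested in the same way. Of 165 transcripts of the 30 genes, 94 were called (56.97%), against 46.8% of all transcripts tested. The complete Fasn transcript, at 41.3 ± 4.95 FPKM, had a share of 0.383, while the whole gene had 0.074. The other Fasn transcripts, of 2 and 4 exons, had shares of -0.017 and 0.115. Hmgcs1 and Sqle held the transcripts with the largest shares: a Sqle isoform that is not in the annotation, at 6.94 FPKM, had 0.805, against 0.375 for the whole gene, and the annotated Hmgcs1 transcript at 42.1 FPKM had 0.764. For Srebf1, the transcript from the farthest upstream start, at 10.3 FPKM, had a share of 0.077, and the transcript from a start further downstream, at 8.66 FPKM, had 0.219. The 6 Insig1 transcripts had shares of 0.000 to 0.548, each below that of the whole gene. How reads are divided among overlapping transcripts is an estimate, and its error is not in the deposited values.

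Single strains were then set against the mean of the other 98. Over 30 genes and 99 strains, 155 of 2970 contrasts lay above (5.22%, against 3.29% over all genes and strains) and 140 lay below (4.71%, against 3.28%), with limma and Benjamini-Hochberg adjustment over all 1393821 contrasts. These 295 strain extremes touched 28 of the 30 genes and 97 strains. Fasn and Hsd17b7 had none. Without the 2 libraries, 420 contrasts were called, of which 270 were among the 295. Over all genes and strains the calls rose as well, from 45865 to 56792 above and from 45662 to 56180 below. BXD-12/TyJ fell from 20 extremes to 2 and CXB-3/ByJ from 9 to 3. Most extremes of those 2 strains were therefore called only with 1 mouse each included.

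Insig1 had the most extremes, 28 strains above and 25 below. BALB/cJ lay below with 18.9, 19.5 and 19.2 FPKM (log2 difference -0.47 ± 0.06, SE, adjusted p = 9.26e-11, limma), and BXH-19/TyJ lay below with 18.7 and 17.3 FPKM (-0.55 ± 0.07, adjusted p = 3.31e-10, limma). C57BL/6J lay above with 32.49, 29.999 and 30.4 FPKM (0.20 ± 0.06, adjusted p = 0.017, limma). The mice of C57BL/6J did not overlap those of BALB/cJ or BXH-19/TyJ. Sc5d had 24 strains above and 10 below, Elovl5 had 13 and 19, Scd1 had 15 and 10, Hmgcs1 had 11 and 12, and Cyp51 had 12 and 8.

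Fads1 lay far below the other strains in C57L/J. The 3 mice were at 42.7, 38.3 and 36.3 FPKM, while every other mouse with a strain was above them. The log2 difference was -1.01 ± 0.08 (SE, adjusted p = 9.08e-22, limma). Fads2 in the same mice was at 113, 110 and 91.0 FPKM, the highest strain mean of the panel, 105 ± 11.9 (0.25 ± 0.07, adjusted p = 0.016, limma). The neighbouring desaturases thus lay on opposite sides of the panel in this strain.

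**Figure D2:**
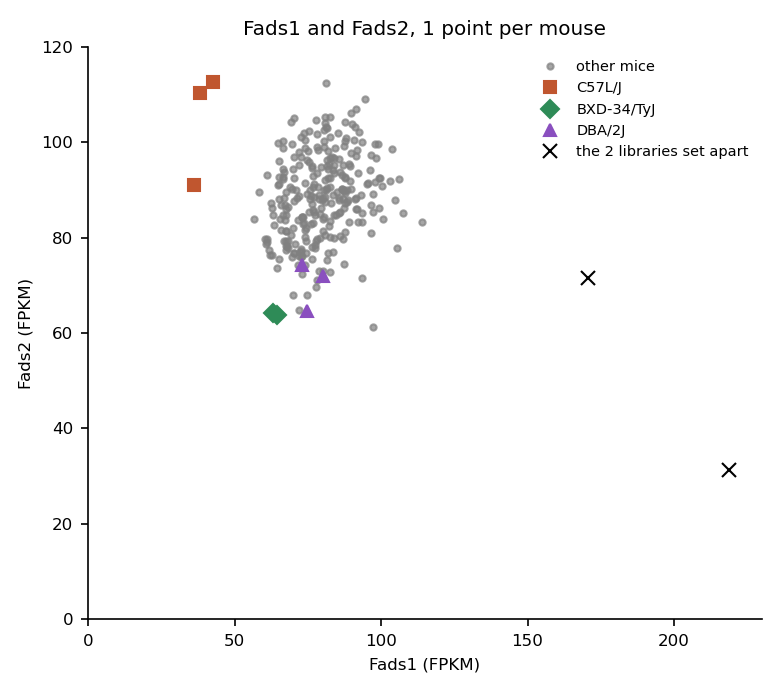
Fads1 (horizontal) against Fads2 (vertical), both in FPKM, with 1 point per mouse. The 3 C57L/J mice lie to the left at 36.3 to 42.7 FPKM of Fads1 with Fads2 at 91.0 to 113, BXD-34/TyJ and DBA/2J lie low in Fads2, and the crosses are the 2 libraries set apart.

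Scd1 was low in BXD-34/TyJ, with 45.1 and 40.5 FPKM (-0.72 ± 0.08, adjusted p = 5.04e-14, limma), and high in AXB-6/PgnJ, with 97.4 and 97.8 FPKM (0.46 ± 0.08, adjusted p = 1.95e-06, limma). BXD-34/TyJ was also the lowest strain for Fads2, with 64.2 and 63.8 FPKM (-0.45 ± 0.09, adjusted p = 6.46e-05, limma). Idi1 was high in 5 BXD strains, BXD75, BXD85, BXD-9/TyJ, BXD70 and BXD62, whose means were 5.72 to 6.46 FPKM. In BXD75 the mice were at 6.92, 5.98 and 6.46 FPKM (1.01 ± 0.19, adjusted p = 3.39e-05, limma). Among the other 38 BXD strains the highest mean of Idi1 was 3.66 FPKM. The same 5 strains had 946 to 1163 genes above and 345 to 492 below over the whole table, and the part of that in the Idi1 levels was not tested.

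KK/HlJ was the highest strain for Dhcr7, with 22.6, 18.9 and 26.9 FPKM (0.46 ± 0.07, adjusted p = 3.39e-07, limma), and the lowest for the joined Pmvk locus, with 35.5, 33.4 and 31.1 FPKM (-0.50 ± 0.08, adjusted p = 1.00e-06, limma). SJL/J was the lowest strain for Hmgcs1, Fdft1, Fdps and Acly. Its Fdps mice were at 26.5 and 23.8 FPKM (-0.47 ± 0.13, adjusted p = 0.012, limma). In the same strain Srebf1 lay above the others, at 41.2 ± 0.175 FPKM (n = 2, 0.33 ± 0.11, adjusted p = 0.045, limma).

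Strains can be ordered by the mean z score over the genes, given here as a description with no test. CXB-6/ByJ was highest (0.75), with 23 of the 30 genes and 16 of the 17 enzymes of the sterol arms above the mean of the strains. BXD-16/TyJ (0.63) and NZW/LacJ (0.62) followed. BXH-19/TyJ was lowest (-1.15), with 2 of the 30 genes above the mean, followed by BXD-6/TyJ (-0.86) and SJL/J (-0.70). Each of these lowest strains had only 2 mice. In SJL/J the low score was that of the sterol arms (-1.20), with none of the 17 enzymes above the mean, while its score over the 9 fatty acid genes was 0.02. In CXB-6/ByJ, 7 genes lay above and 1 below by the test for strain extremes, among them Mvk at 13.3 ± 1.99 FPKM, Sqle at 30.6 ± 1.04 and Insig1 at 31.5 ± 0.574 above and Elovl5 at 29.5 ± 1.93 below. In CXB-6/ByJ 5.06% of all genes were called in either direction. In BXH-19/TyJ, 7 genes lay below and none above, namely Insig1, Cyp51, Nsdhl, Fdft1, Sqle, Scd1 and Stard4, and 3.86% of all genes were called, 208 above and 336 below.

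**Figure D3:**
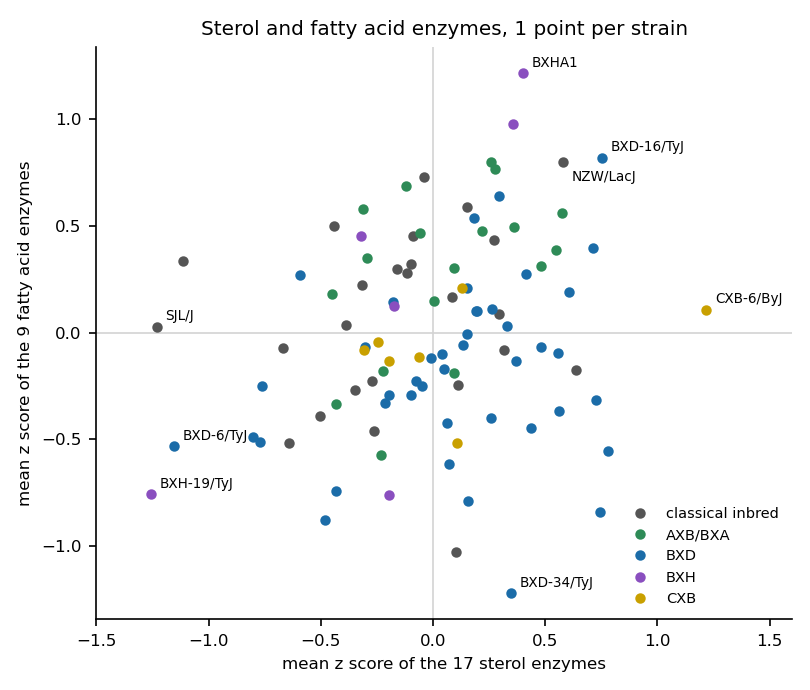
Mean z score of the 17 sterol enzymes (horizontal) against that of the 9 fatty acid genes (vertical), 1 point per strain, coloured by strain family and drawn without the 2 libraries set apart. CXB-6/ByJ lies far right at a middling fatty acid score, and SJL/J, BXD-6/TyJ and BXH-19/TyJ lie far left.

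The recombinant families show how strain means were spread against those of the parents. These values leave out the 2 libraries set apart, and the position of a gap is a description with no test. For Sc5d, C57BL/6J was at 24.5 and DBA/2J at 16.3 FPKM. The 43 BXD strains fell into 29 at up to 19.7 FPKM and 14 from 21.9 FPKM upward, and the widest gap between neighbouring strains lay between them. In the AXB/BXA family 11 strains lay up to 21.1 and 7 from 23.8 FPKM, with C57BL/6J again on the higher side and A/J at 19.8. In the CXB family 4 strains lay up to 19.2 and 3 from 23.6 FPKM, and BALB/cJ was at 19.0. In the BXH family all 6 strains lay at 16.99 to 19.3 FPKM, 4 of them below both parents, with C3H/HeJ at 18.3.

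For Insig1, C57BL/6J (31.0 FPKM) and DBA/2J (29.8) were close, and the BXD strains ran from 25.0 to 33.9. C3H/HeJ was at 20.6 FPKM, and 5 of the 6 BXH strains lay at 18.0 to 22.4 while 1 lay at 32.7. For Fads2, C57BL/6J was at 99.5 and DBA/2J at 70.3 FPKM, and 42 of the 43 BXD strains lay between these parents. For Hmgcs1 the parents of the BXD strains were at 73.6 and 83.2 FPKM, and only 16 of 43 strains lay between them, with 16 below and 11 above. For Elovl5, 24 of the 43 BXD strains lay below both parents, 9 between them and 10 above.

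**Figure D4:**
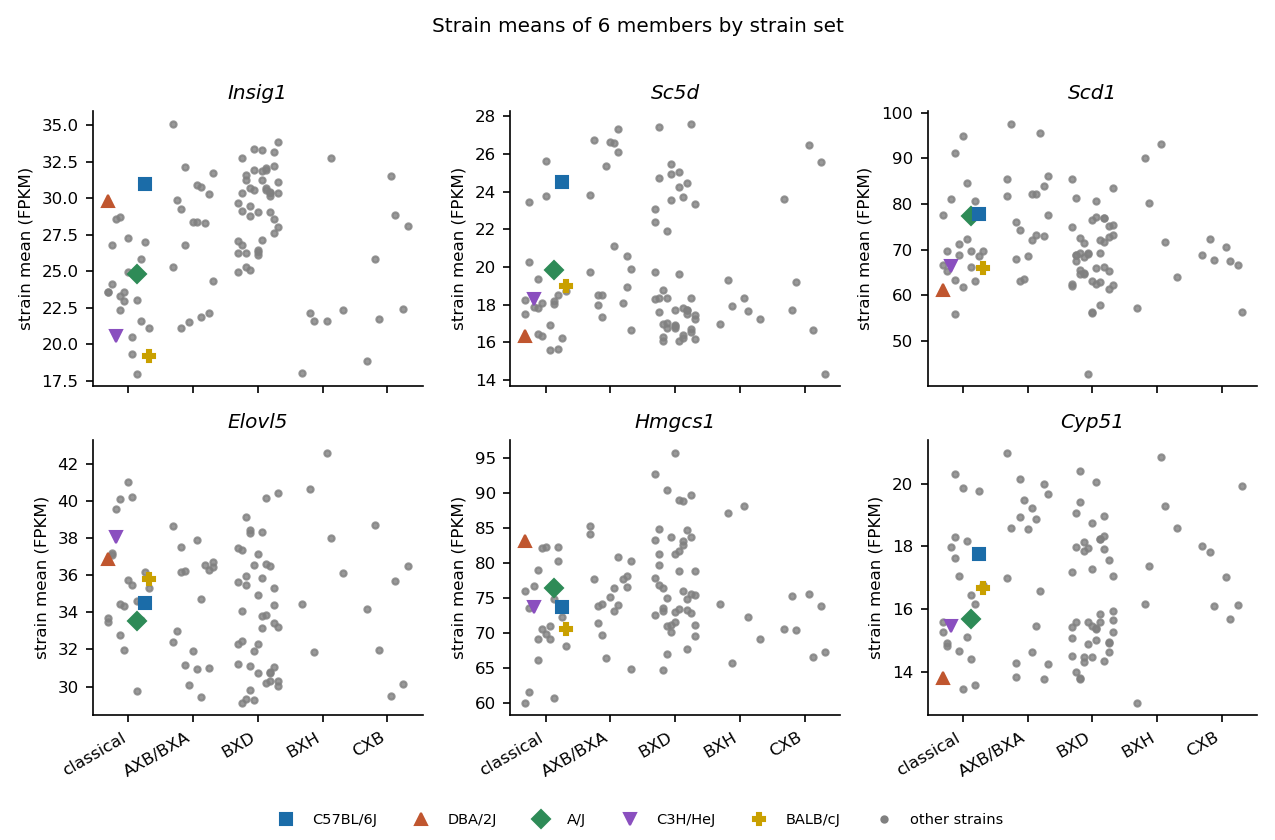
Strain means in FPKM (vertical axes) of Insig1, Sc5d, Scd1, Elovl5, Hmgcs1 and Cyp51 by strain family, with no library left out and the parents of the families drawn as large symbols. The BXD strains split around 20 to 22 FPKM for Sc5d and the BXH strains around 22.4 to 32.7 FPKM for Insig1.

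Whether the genes moved together was asked between strains, over 99 strain means, and within strains, over the deviations of mice from their strain mean in the 97 strains with at least 2 mice. Over the 435 pairs of the 30 genes, Pearson's r between strains had a median of 0.098, against 0.006 over all pairs of genes, and 14 pairs (3.22%) reached 0.5, against 0.784% of all pairs. Without the 2 libraries the median was 0.089, and 10 pairs (2.299%) reached 0.5, against 0.463% of all pairs. The pairs share libraries and genes, so the values are a description. Within strains the median was 0.084, and 44 pairs (10.1%) reached 0.5, against 2.53% of all pairs. Without the 2 libraries 12 pairs within strains (2.76%) did, against 0.536% of all pairs. The counts of strong pairs within strains were therefore several times larger with these 2 mice, in the set and among all genes alike.

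Without those mice, the closest pairs between strains were Acaca with Elovl6 (r = 0.610), Fdps with Fdft1 (0.610), Sqle with Stard4 (0.603) and Acat2 with Fdps (0.600). Within strains they were Acaca with Scd2 (0.714), Hmgcs1 with Sqle (0.690), Scd1 with Scd2 (0.653) and the joined Tm7sf2 locus with Fasn (0.631). The most negative pairs within strains were Scd2 with Fads1 (-0.569) and Acaca with Fads1 (-0.504). Between strains, pairs of 2 sterol enzymes had a median r of 0.141, and pairs of a sterol enzyme with a fatty acid gene had 0.052. The sterol score and the fatty acid score had a Pearson's r of 0.232 over strains (Spearman's rho 0.241).

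**Figure D5:**
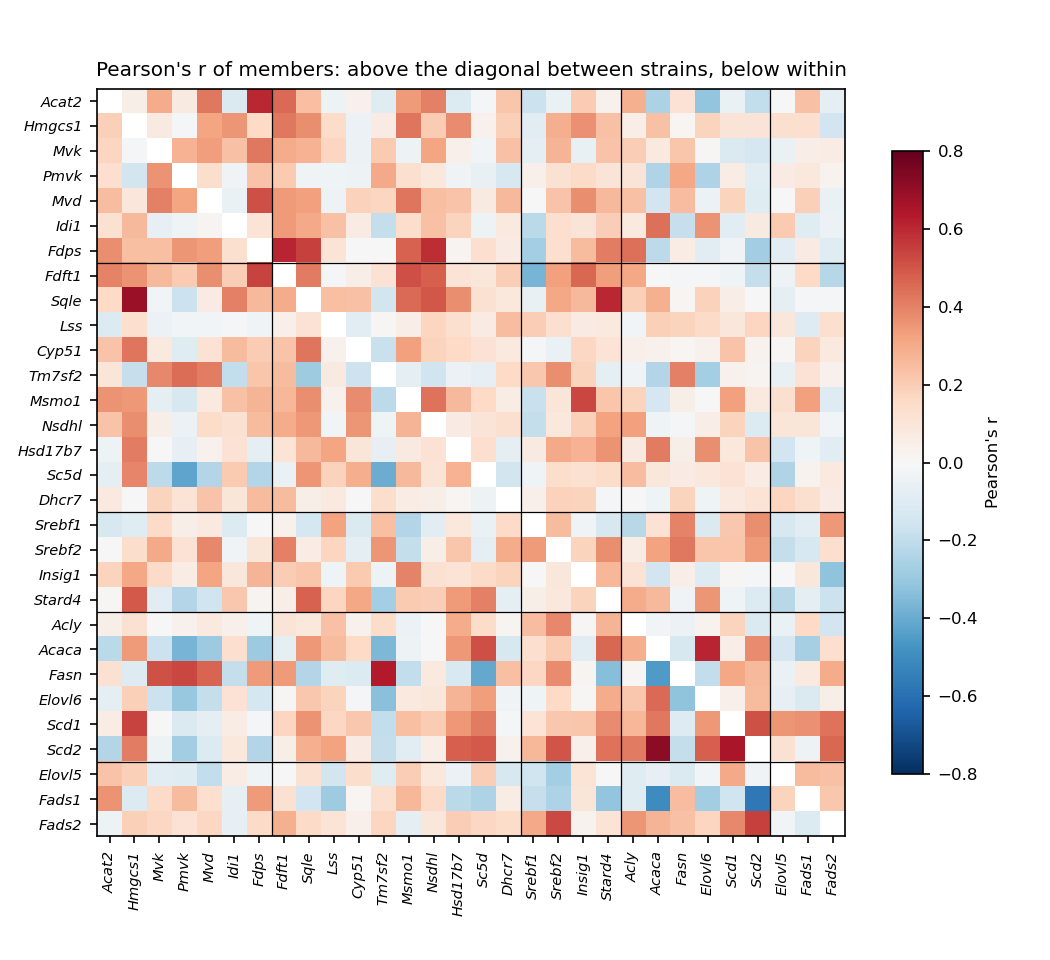
Pearson's r for each pair of the 30 genes without the 2 libraries set apart, between strains above the diagonal and within strains below it, in the order of their roles with lines between roles. Red stands for positive and blue for negative r on a scale from -0.8 to 0.8. The reddest cells are Fdps with Fdft1 and Acaca with Elovl6 above the diagonal and Acaca with Scd2 and Hmgcs1 with Sqle below it.

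Each of 4 genes was then correlated with every gene of the table, with 2-sided permutation tests of 100000 resamples, whose smallest p is 1e-05, and Benjamini-Hochberg adjustment over all genes and the 4 genes together. Hmgcs1 stands for the sterol arms, Fasn for fatty acid synthesis, and Srebf1 and Srebf2 for the regulators.

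Between strains, Hmgcs1 was positively correlated with 7 of the other 29 genes, against 4.42% of all genes, and negatively with 0, against 1.7%. The strongest was Msmo1 (r = 0.441, permutation p = 1e-05, adjusted 0.000423; rho = 0.341, permutation p = 0.0006, adjusted 0.012), and with the 2 strains of the most extreme Hmgcs1 levels left out r was 0.455. Fdft1 (0.419), Sqle (0.385), Insig1 (0.364), Hsd17b7 (0.349) and Mvd (0.329) followed. For Idi1, r was 0.314 (adjusted permutation p = 0.020), but rho was 0.189 (adjusted permutation p = 0.240), and r was 0.249 without the 2 farthest strains. All 7 are enzymes or regulators of the sterol arms, and none of the 9 fatty acid genes passed. Among the other lipid genes that passed were Aacs and Acsl3.

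Within strains, Hmgcs1 was positively correlated with 15 of the 29 genes, against 15.1% of all genes, and negatively with 1, against 13.7%. Sqle was the strongest (r = 0.685, permutation p = 1e-05, adjusted 9.76e-05; rho = 0.651). Scd1 (0.467), Cyp51 (0.417), Hsd17b7 (0.393) and Stard4 (0.391) followed, so fatty acid genes were among those that passed here. The negative one was the joined Tm7sf2 locus (-0.161), which did not pass without the 2 libraries (adjusted permutation p = 0.052).

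Fasn was positively correlated between strains with 5 of the 29 genes, against 4.56% of all genes, and negatively with 0, against 3.64%. The strongest was the joined Tm7sf2 locus (r = 0.367, permutation p = 0.00023, adjusted 0.00475; rho = 0.369, permutation p = 0.00016, adjusted 0.00478; r = 0.378 without the 2 farthest strains). Srebf1 (0.364), Srebf2 (0.337), the joined Pmvk locus (0.302) and Scd1 (0.269) followed. Scd1 with Fasn did not pass without BXD-12/TyJ replicate 2 (r = 0.266, adjusted permutation p = 0.056), and it passed without both libraries (0.312, adjusted permutation p = 0.020). Hmgcs1 with Fasn had an r of -0.006. Among the other lipid genes 7 passed positively, led by Mid1ip1 (0.466), an activator of acetyl-CoA carboxylase, and Insig2 passed negatively (-0.351).

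Within strains, Fasn was positively correlated with 10 of the 29 genes, against 28.6% of all genes, and negatively with 7, against 22.3%. The share of the 29 genes was near that of all genes, so these counts say little about the set. The joined Tm7sf2 locus (0.571), Mvk (0.494), Mvd (0.487) and the joined Pmvk locus (0.469) were the most positive. Acaca (-0.461), Sc5d (-0.444), Stard4 (-0.358) and Elovl6 (-0.347) were the most negative. The enzyme of Acaca supplies the substrate of the synthase, and that of Elovl6 extends its product.

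Srebf1 was positively correlated between strains with 4 of the 29 genes, against 9.48% of all genes, and negatively with 2, against 7.23%. These shares were near those of all genes, so the counts say little about the set. The median r of Srebf1 was -0.066 with the 29 genes and 0.008 with all genes. The positive ones were Scd2 (r = 0.430, permutation p = 1e-05, adjusted 0.000423; rho = 0.408; r = 0.419 without the 2 farthest strains), Fads2 (0.386), Fasn (0.364) and Srebf2 (0.310). The negative ones were Fdft1 (-0.391) and Fdps (-0.330). Without the 2 libraries, Fdps with Srebf1 had an r of -0.270 (adjusted permutation p = 0.057) and Srebf2 with Srebf1 had 0.253 (adjusted permutation p = 0.079). Within strains, 5 genes were positive, against 6.49% of all genes, and 2 negative, against 5.7%, with Srebf2 (0.360) and Lss (0.354) the most positive.

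Srebf2 was positively correlated between strains with 7 of the 29 genes, against 14.1% of all genes, and negatively with 0, against 8.84%. They were Scd2 (r = 0.450, permutation p = 1e-05, adjusted 0.000423; rho = 0.352; r = 0.355 without the 2 farthest strains), Stard4 (0.408), Acaca (0.353), Hsd17b7 (0.347), Fasn (0.337), Elovl6 (0.310) and Srebf1 (0.310). When the 2 strains farthest in Srebf2 were left out, 4 of the 29 genes passed positively, against 1443 of all 14078 genes. That count is near the share of all genes and says little about the set. With the 2 libraries set apart left out, 10 of the 29 passed positively, against 1585 of all 14078. Elovl6 and Srebf1 were no longer among these, and the joined Tm7sf2 locus moved from 0.147 to 0.371. Within strains 12 genes were positive, against 16.1% of all genes, and 2 negative, against 12.5%. Fads2 was the strongest (0.684, and 0.527 without the 2 libraries), followed by Scd2 (0.650 and 0.504).

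The marker lists were set beside the 30 genes in the same way, as a description and without the 2 libraries. Between strains, the summed oligodendrocyte and myelin markers had r values of -0.189 to 0.390 with the 30 genes, highest for Msmo1. The summed neuron markers reached 0.552 with Hsd17b7, and the astrocyte markers 0.356 with Scd2. Within strains, the astrocyte markers reached 0.514 with Scd1, the neuron markers 0.474 with Hmgcs1 and the oligodendrocyte markers 0.426 with Elovl5. The choroid plexus markers ran within strains from -0.333, with Hmgcs1, to 0.123. The anterior pituitary markers ran within strains from -0.302, with Scd1, to 0.094. The anterior pituitary markers ran from -0.192 to 0.321 between strains and the choroid plexus markers from -0.256 to 0.069. The thalamus markers reached 0.490 with Hsd17b7 between strains, and the hypothalamus markers reached -0.411 with Elovl6 between strains and -0.443 with Sc5d within strains. What part cell make-up has in the strain shares and correlations was not tested.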

How the data were processed

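Whole hypothalami of 282 male mice gave 1 unstranded TruSeq mRNA library each. According to the submitters' processing notes and the study's methods, STAR 2.3.1 was the aligner, mm10 the build, Cufflinks 2.2.0 the assembler (joined to GENCODE M2), and Cuffnorm 2.2.1 the source of the FPKM scaled by the authors. In the deposited FPKM table every feature passes 0 in 100 or more mice and passes 1 in 50 or more. The values hold no counts, so the depth behind a value is unknown here and no counting interval is given.

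The members and gene lists were chosen with earlier results of these data known. All genes found were named, grouped by role, and full statistics went to the 5 largest and 3 smallest strain shares and to strain extremes past the threshold. Mice were grouped by strain label (99 strains), and 1 mouse with conflicting labels entered none of the main tests. Tests used log2(FPKM + 1), and fold changes are on that scale, which understates changes of low genes. limma 3.58.1 (R 4.3.3) fitted all strains in 1 model, giving a moderated F test per feature and, for strain extremes, contrasts of each strain with the other 98, where a strain with 1 mouse is assumed to vary like the others. Correlations used numpy 2.4.6 with permutation over strains, or within strains for deviations. p-values were adjusted by Benjamini-Hochberg over all features, and the threshold was 0.05. Some values for the other lipid genes are not reported here. Scripts were tested on simulated data. Alternatives were other pseudocounts, a filter on low means, quantile normalization, read-number covariates, other placements of the unassigned mouse, unlogged values, single mice, leaving out each replicate, and leaving out the 2 libraries set apart.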

Additional observations from a re-analysis of the deposited data

How the results depend on the processing

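No paired analysis was possible because the labels carry no replicate numbers that link mice of different strains. The number of genes of the set that differed between strains was 26 under every setting with all replicates, and 18 to 22 when the mice with 1 replicate number (1, 2 or 3) were left out, where a strain had one. These settings gave 144 to 175 strain extremes (295 with all mice), 58 to 63 transcripts (94), 27 to 28 correlations between strains (25) and 19 to 34 within strains (54). Over all genes they gave 6413 to 8639 genes that differed between strains (10617 with all mice), 48836 to 62604 strain extremes (45865 above and 45662 below), 12475 to 16853 transcripts (23889), 7012 to 9442 correlations between strains and 5030 to 10579 within strains, from fewer mice. Treating single mice as the points gave 63 correlations in place of 25, and 21788 over all genes, although mice of 1 strain are not independent points. A single library, replicate 2, decided directions in BXD-12/TyJ. Without it the log2 difference turned from above to below the other strains for Mvk (-0.0044), Pmvk (-0.094), Fdps (-0.039) and Tm7sf2 (-0.049). None of these differences was called without it (adjusted p = 0.558 to 0.991, limma), so these calls were lost. Without both libraries the log2 differences were -0.0013, -0.091, -0.036 and -0.047, again not called. Leaving out each replicate number in turn gave -0.0093 to 0.968 for Mvk, -0.094 to 0.718 for Pmvk, -0.040 to 1.07 for Fdps and -0.053 to 0.713 for Tm7sf2. Acat2 with Fasn within strains turned to an r of -0.010 after quantile normalization, and the cause was not tested. The strain share of Acaca was estimated below 0, at -0.020, without the mice numbered replicate 2, but the F test has no direction, so this is a lost call. With the 2 strains farthest from the median left out, Fasn was correlated with 4 genes of the set in place of 5 and Srebf2 with 4 in place of 7. Positive correlations over all genes fell too, from 642 to 560 for Fasn and from 1983 to 1443 for Srebf2. The mice per strain and the unknown depth limit what these values can show.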

Other observations

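The mouse whose title and strain label name different AXB strains entered none of the main comparisons. Its Scd1 level of 97.9 FPKM ranked 3 among the 282 mice, and AXB-6/PgnJ and AXB-8/PgnJ had means of 97.6 ± 0.280 and 95.5 ± 10.6 FPKM for Scd1 (n = 2 each). Its Srebf1 level of 42.9 FPKM ranked 4, against means of 37.5 ± 4.56 and 38.5 ± 0.479 FPKM in those strains. Its Hsd17b7 level of 5.63 FPKM ranked 199.

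Of the 30 other lipid genes, those with the largest strain shares were Acss2 (0.559), which makes acetyl-CoA from acetate, Ggps1 (0.508), which makes geranylgeranyl diphosphate, and Elovl2 (0.499), an elongase of long polyunsaturated chains. The 4 genes of that list that were not called were Ebp (-0.046), Nr1h2 (-0.027), Mbtps2 (0.086) and Pcyt2 (0.110).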
